A study of Mus musculus with 4 samples.

Results

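The genes described here are *Slc1a5* and 9 other genes of amino acid transport (*Slc1a4*, *Slc3a2*, *Slc7a1*, *Slc7a3*, *Slc7a5*, *Slc7a11*, *Slc38a1*, *Slc38a2* and *Slc6a9*), measured by microarray in mouse neural stem/progenitor cells (NSPCs). They were found by their gene names on the array, where 15 of 55681 probes carry them, and all 10 genes passed the filter on dim signals that left 20237 genes. The choice was made with the measured responses and untreated levels of the same arrays in view, so the values of the 10 genes below are a description and carry no test.

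NSPCs are dividing cells that give rise to neurons and glia and grow as floating neurospheres. They came from embryos of Slc:ICR mice at embryonic day 13.5, either wild-type or *Trp53*-/-, and were grown in medium with EGF and FGF-basic. Each of the 4 arrays paired RNA of cells treated with 20 μM PJ34, an inhibitor of poly(ADP-ribose) polymerases, labelled with Cy5, with RNA of untreated cells of the same genotype, labelled with Cy3. There were 2 arrays a genotype, from RNA prepared independently, and the dyes were never swapped. *Trp53* encodes p53. The *Trp53*-/- embryos trace to mice heterozygous for a deficient *Trp53* allele, and the labels give both genotypes the same strain. Whether the embryos of the 2 genotypes were littermates and how long the cells were treated before RNA was taken are not given in the sources used here.

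Amino acid transporters of the plasma membrane supply dividing cells with building blocks, and the exchangers among them trade 1 amino acid for another across the membrane. *Slc1a5* encodes ASCT2, a sodium-dependent exchanger that brings glutamine into the cell, and *Slc7a5* encodes LAT1, which pairs with the heavy chain 4F2hc encoded by *Slc3a2* and takes up leucine and other large neutral amino acids. Amino acid supply is sensed by the kinase complex mTORC1. When amino acids run short, the transcription factor ATF4 is known to induce transporters and enzymes of amino acid synthesis, in many genes through a DNA element that it binds together with C/EBP proteins.

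The PJ34 channel had between 26099 and 27166 probes well above background and the control channel between 21515 and 24553, and no spot was saturated. All 11 markers of NSPCs were above background in the control channel of every array. So were 7 of 7 markers of oligodendrocytes and 6 of 7 of neurons in each genotype. Of 6 markers of astrocytes, 5 were in wild-type and 6 in *Trp53*-/-. Detection alone thus does not set NSPCs apart from these cells. The probe of *Trp53* gave untreated levels of 8.25 and 8.48 (log2) in wild-type and 7.53 and 7.76 in *Trp53*-/-, above background on all 4 arrays, and the sources used here do not say whether it lies in the part altered in that allele. *Trp53*-/- replicate 2 stood apart: its log2 ratios were 4.27 for *Eif2s3y* and 3.08 for *Ddx3y*, genes of the Y chromosome, and -1.41 for *Xist*, the RNA of the inactive X, so that its treated and untreated RNA differed in the sex-linked genes. The control cells of the *Trp53*-/- arrays had no signal of either Y-linked gene above background, and those of both wild-type arrays did, so that genotype cannot be told apart from the sex of the embryos in the untreated comparison.

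The findings on *Slc1a5* turn on which of its 2 probes is read. The brighter probe lies at chr7:17383359-17383418 (mm9, plus strand), 332 bases further along the transcript than the dimmer one at chr7:17383027-17383086, which covers the end of the coding sequence. The sequence of the dimmer probe is shown here because it is the one whose readings differ from those the text leads with.
*Slc1a5* dimmer probe: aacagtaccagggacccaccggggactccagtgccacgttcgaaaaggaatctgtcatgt

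Of the 10 genes, 6 have an entry in the RefSeq promoter table of GRCm38.p6 (*Slc1a4*, *Slc3a2*, *Slc7a1*, *Slc7a11*, *Slc38a2* and *Slc6a9*), and *Slc1a5*, *Slc7a3*, *Slc7a5* and *Slc38a1* have none. Both strands of the 250 bases before and 50 after each start were searched for TGATGNAA, the core of the element bound by ATF4 and C/EBP proteins. It is present in 2 of the 6 genes and in 4.51% of the 27025 genes of the table, each counted once over all its promoters. In *Slc1a4* it reads TTGCATCA on the gene's strand and spans the start, from base -4 to base 4, where base 1 is the first transcribed base. In *Slc7a11*, which encodes the cystine importer xCT, it occurs in both orientations, at -66 to -59 and at -47 to -40. CACGTG, the E-box bound by MYC and its relatives, is in none of the 6 and in 8.09% of genes. TGACNNNGC, the core of the antioxidant response element, is in *Slc7a1*, *Slc38a2* and *Slc6a9*, and in 14% of genes. A match describes the sequence and is not evidence of a site in use. The promoters that hold TGATGNAA are printed with the match in capitals, chr11:20332710-20332963 (minus strand) for *Slc1a4* and chr3:50443614-50443863 (minus strand) for *Slc7a11*.
*Slc1a4* promoter: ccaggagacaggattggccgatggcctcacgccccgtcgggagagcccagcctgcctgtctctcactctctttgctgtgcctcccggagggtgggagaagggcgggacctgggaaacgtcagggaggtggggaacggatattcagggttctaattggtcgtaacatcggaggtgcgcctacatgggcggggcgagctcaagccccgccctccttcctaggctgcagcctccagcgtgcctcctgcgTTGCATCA
*Slc7a11* promoter: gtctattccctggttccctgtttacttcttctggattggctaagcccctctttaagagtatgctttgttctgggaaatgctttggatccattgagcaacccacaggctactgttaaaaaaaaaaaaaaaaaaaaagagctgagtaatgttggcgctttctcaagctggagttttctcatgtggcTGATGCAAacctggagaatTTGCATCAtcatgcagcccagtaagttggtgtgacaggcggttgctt

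PJ34 treatment went with less *Slc1a5* RNA in wild-type cells. All responses are log2 ratios of PJ34 over control after loess normalization, so that -1 is a 2-fold decrease. For *Slc1a5* they were -0.96 and -0.94 on the wild-type arrays (mean -0.95 ± 0.02, SD, n = 2, or 1.93-fold lower). On the *Trp53*-/- arrays they were -0.12 and 0.25 (mean 0.06 ± 0.26, SD, n = 2). The arrays of the 2 genotypes were 0.81 apart at the nearest. The difference of the responses, wild-type minus *Trp53*-/-, was -1.01 (SE 0.15), which is 2.01-fold.

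*Slc1a4* encodes ASCT1, the closest relative of ASCT2 and an exchanger of alanine, serine and cysteine. Read at chr11:20202615-20202674 (mm9, minus strand), its RNA was higher after PJ34 in both genotypes, with log2 ratios of 0.74 and 0.70 in wild-type and 0.61 and 0.51 in *Trp53*-/- (means 0.72 ± 0.03 and 0.56 ± 0.07, SD, n = 2 each). It was the member of the 10 with the highest ratio on each of the 4 arrays. The 2 relatives thus lay at opposite ends of the list in wild-type cells.

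The subunits of the heteromeric exchangers were lower or little different. *Slc7a5* gave log2 ratios of -0.22 and -0.42 in wild-type and -0.43 and -0.55 in *Trp53*-/-. *Slc3a2*, its heavy chain, gave -0.02 and -0.09 in wild-type and -0.46 and -0.20 in *Trp53*-/-. Neither gene overlapped between the genotypes, but the gap was 0.01 for *Slc7a5* and 0.11 for *Slc3a2*. *Slc7a11* was dim, with 3 of its 8 channels well above background. Its log2 ratios were -0.40 and 0.08 in wild-type, where the PJ34 channel was not well above background on either array and the control channel was on 1. In *Trp53*-/- its control channel was not well above background on either array. No fold is given for this gene in either genotype.

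*Slc7a1* and *Slc7a3* encode CAT1 and CAT3, importers of arginine and lysine. *Slc7a1* was lower on all 4 arrays, at -0.53 and -0.27 in wild-type and -0.26 and -0.40 in *Trp53*-/-, with no separation of the genotypes. *Slc7a3* gave 0.24 and -0.01 in wild-type and -0.16 and -0.69 in *Trp53*-/-. Its difference between genotypes, 0.54 (SE 0.18), was second in size to that of *Slc1a5* and of the opposite sign, and it was 0.27 without *Trp53*-/- replicate 2 and 1.11 with the scanner's log ratios, under which it did not meet the criteria given below (*q* = 0.272). *Slc7a3* is on the X chromosome, and the part of the sex-linked difference within that array in its value was not tested.

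The sodium-coupled transporters of system A, SNAT1 (*Slc38a1*) and SNAT2 (*Slc38a2*), stayed within 0.25 of 0. *Slc38a1* gave -0.08 and -0.18 in wild-type and 0.12 and -0.08 in *Trp53*-/-. *Slc38a2* gave 0.05 and -0.24 in wild-type and -0.09 and -0.10 in *Trp53*-/-. *Slc6a9*, which encodes the glycine transporter GLYT1, had the most even response of the 10, as read from the brightest probes. It was at -0.45 and -0.42 in wild-type and -0.41 and -0.42 in *Trp53*-/-, or 1.35-fold and 1.33-fold lower.

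**Figure D1:**
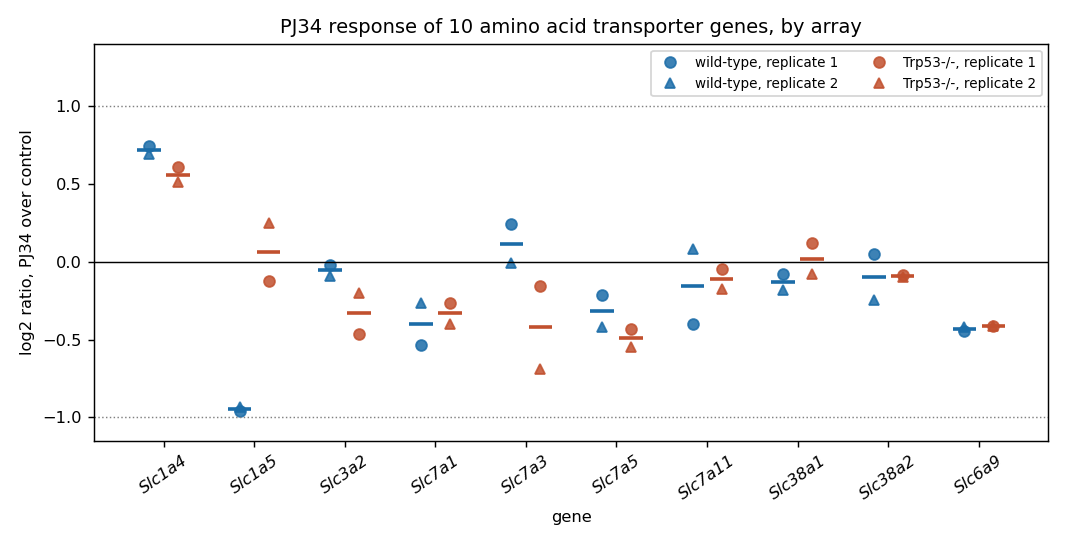
Log2 ratio of PJ34 over control (vertical axis) for the 10 transporter genes (horizontal axis) on each array, wild-type in blue and Trp53-/- in red, with circles for replicate 1 and triangles for replicate 2. Short bars are means of 2 arrays and dotted lines mark a 2-fold change. Slc1a5 lies near -0.95 on both wild-type arrays and on both sides of 0 in Trp53-/-, while Slc1a4 lies above 0 on all 4 arrays.

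Of the 10 genes, 1 was above 0 and 6 were below 0 on both wild-type arrays, where 39.1% and 30.8% of all genes were. In *Trp53*-/-, 1 was above and 7 were below, against 40.6% and 30% of all genes. The median response of the 10 was -0.15 in wild-type and -0.22 in *Trp53*-/-, and that of all genes was 0.03 in both. Without loess, when each array was only centred on its median, the median of all genes kept moved to 0.44 in wild-type and 0.62 in *Trp53*-/-, and 8 of the 10 genes stood above 0 in each genotype, *Slc6a9*, *Slc7a1* and *Slc7a5* among them. Relative to that shift the median of the 10 lay at -0.14 and 0.00, and *Slc1a4* stayed above 0 in both genotypes and *Slc1a5* below 0 in wild-type.

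Genes were called by the criteria of the study's methods, which ask of limma's model a *p* and a Storey *q* below 0.05 each, and a fold change over 2. None of the 10 met them in wild-type, where 0.292% of genes were called higher and 0.193% lower, nor in *Trp53*-/-, where 0.0939% were called higher and 0.277% lower. For the difference between genotypes 1 of the 10 met them, *Slc1a5*, with the lower response in wild-type. Of all genes 0.44% were called with the higher and 0.0346% with the lower response in wild-type. Since the genes were chosen on these contrasts, nothing is read from these counts. By *q* alone, without a limit on size, 1 was higher and 4 were lower in wild-type (of all genes 12.4% and 10.4%), and 1 was higher and 5 were lower in *Trp53*-/- (11.5% and 9.69%). For the difference, by *q* alone, it was *Slc1a5* again and no gene of the 10 was higher (of all genes 0.321% lower and 1.06% higher). The arrays of the genotypes did not overlap in 7 of the 10, of which 4 had the higher and 3 the lower response in wild-type, as did 21.2% and 23.2% of all genes. *Slc1a5* stood just inside the limit of 2-fold for the difference and just outside it for wild-type alone. The next gene by size of the difference was *Slc7a3*, at 0.54.

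The dimmer probe of *Slc1a5* gave a smaller separation. Its log2 ratios were -0.76 and -0.38 in wild-type and -0.34 and -0.21 in *Trp53*-/-, so that the probe read lower after PJ34 on all 4 arrays. Its arrays did not overlap between genotypes either, but the difference was -0.30, against -1.01 from the brighter probe. With the mean of both probes the difference was -0.65 and did not meet the criteria. For *Slc38a1* the brightest probe gave a difference of -0.15 and the other 2 gave -0.13 and -0.28. The second probe of *Slc7a5* gave 0.14, against 0.17. Its log2 ratios were -0.14 and 0.15 in wild-type and -0.13 and -0.15 in *Trp53*-/-. Its means were thus 0.00 and -0.14, against -0.32 and -0.49 from the brighter probe. The decrease of *Slc7a5* in wild-type was therefore seen on the brighter probe only. The 2 probes of *Slc6a9* share 51 of their 60 bases and are not independent readings, and they gave -0.02 and -0.04. The dimmer of the 2 was less even, at -0.50 and -0.43 in wild-type and -0.50 and -0.36 in *Trp53*-/-.

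The *Slc1a5* difference was negative in all 17 alternative processings, from -1.24 with the scanner software's own log ratios to -0.65 with the mean of both probes. The filters, adjustments, variance model and replicate blocks could not move its estimate, so that the sign under them was fixed beforehand. The difference was called in 12 of the 17. All but unadjusted *p*, which asked only for *p* below 0.05, used the criteria above. Without *Trp53*-/- replicate 2, the array that stood apart in the sex-linked genes, it was -0.82 and did not meet them. Without wild-type replicate 1 it was just under 2-fold, at -0.998, and without wild-type replicate 2 and *Trp53*-/- replicate 1 it was -1.02 and -1.20.

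**Figure D2:**
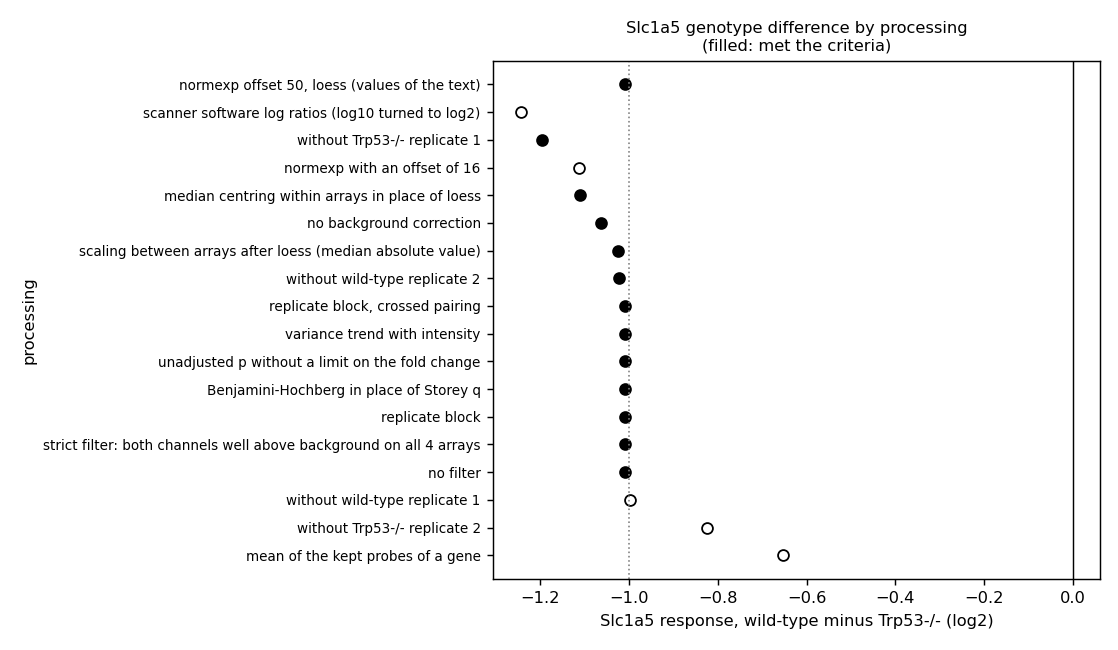
Difference of the Slc1a5 response, wild-type minus Trp53-/- (horizontal axis, log2), under each processing (vertical axis). Filled points met the criteria, or under unadjusted p that limit on p alone, and open points did not. The dotted line marks 2-fold. All values lie between -1.24 and -0.65.

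The levels show which of the 4 conditions held the difference. Levels are log2 intensities after normalization between arrays, and each is compared only with levels of the same probe. *Slc1a5* read 9.29 and 9.07 in untreated wild-type cells, 8.33 and 8.13 in treated wild-type cells, 8.14 and 8.27 in untreated *Trp53*-/- cells, and 8.02 and 8.52 in treated *Trp53*-/- cells. Untreated wild-type cells were the highest and did not overlap with any other condition, and the other 3 conditions overlapped with each other. Untreated *Trp53*-/- cells were thus 1.97-fold lower than untreated wild-type cells (log2 difference -0.97, SE 0.18), while after PJ34 the genotypes differed by 0.03. The response and the untreated difference share the control channels, so that they are 2 views of the same 4 control readings and not separate evidence.

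The dimmer *Slc1a5* probe read 7.67 and 7.13 in untreated wild-type cells and 7.18 and 7.24 in untreated *Trp53*-/- cells, which overlapped. Averaged over both probes, the untreated difference was -0.58.

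**Figure D3:**
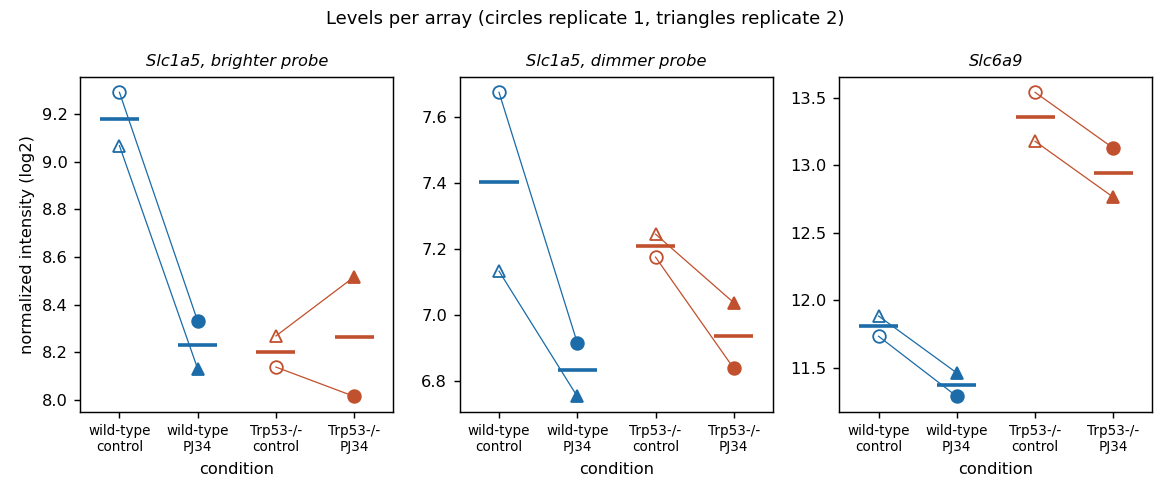
Normalized intensity (vertical axis, log2) of both Slc1a5 probes and of Slc6a9 in the 4 conditions (horizontal axis), with open symbols for control and filled symbols for PJ34, circles for replicate 1 and triangles for replicate 2. Lines join the 2 channels of an array, bars are means of 2, and each panel has its own vertical scale that does not start at 0. The brighter Slc1a5 probe is highest in untreated wild-type cells, and Slc6a9 is higher in both Trp53-/- conditions than in both wild-type conditions.

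*Slc6a9*, read at chr4:117541842-117541901 (mm9, plus strand), differed most between untreated genotypes. It read 11.73 and 11.88 in wild-type and 13.54 and 13.18 in *Trp53*-/-, 2.93-fold higher in *Trp53*-/- (log2 difference 1.55, SE 0.20). After PJ34 it read 11.29 and 11.46 in wild-type and 13.13 and 12.76 in *Trp53*-/-, a difference of 1.57. Its 4 conditions fell in the order untreated *Trp53*-/-, treated *Trp53*-/-, untreated wild-type and treated wild-type, and no neighbours overlapped. The difference was 1.73 without *Trp53*-/- replicate 2 and 1.37 without *Trp53*-/- replicate 1.

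*Slc3a2* was also higher in untreated *Trp53*-/- cells, which read 13.58 and 13.53 against 12.60 and 13.18 in wild-type (difference 0.67, SE 0.23). *Slc7a3* read 7.53 and 7.68 against 7.23 and 6.97 (difference 0.50, SE 0.19). Both were highest in untreated *Trp53*-/- cells, above the 3 other conditions, each of which overlapped with the next in order. For the remaining 6 genes the untreated genotypes overlapped on the brightest probe. In *Slc7a5*, for example, the wild-type mean was 9.94 ± 0.61 (SD, n = 2) and the *Trp53*-/- mean 10.24 ± 0.27. In *Slc38a2*, the farthest apart of the 6 by means, wild-type read 11.59 and 10.91 and *Trp53*-/- 10.94 and 10.64. Another probe of *Slc38a1* read 9.54 and 9.86 in wild-type and 9.28 and 9.30 in *Trp53*-/-, without overlap. On the brightest probe of that gene *Trp53*-/- had the higher mean, and on its remaining probe the genotypes overlapped.

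Of the 10 genes 1, *Slc6a9*, met the criteria for the untreated difference, where 1.90% of genes were called higher and 1.98% lower in *Trp53*-/-. The arrays did not overlap in 4 genes, 3 higher in *Trp53*-/- and 1 higher in wild-type, and they did not overlap in 27.0% and 28.7% of all genes. By *q* alone *Slc6a9* was higher and *Slc1a5* lower in *Trp53*-/- (of all genes 3.73% and 3.79%). The median untreated difference of the 10 was 0.23, and that of all genes was 0.00. The former rested on single arrays: it was -0.08 without wild-type replicate 2, when 3 of the 10 stood above 0, and 0.41 without wild-type replicate 1, when 8 did. It was 0.13 without *Trp53*-/- replicate 2 and 0.07 with the mean of a gene's probes.

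Markers of other cells moved with this comparison. The summed control level of the 7 endothelial and mural genes was 13.31 to 13.83 (log2) in wild-type and 11.98 to 12.11 in *Trp53*-/-, with *Acta2* and *Kdr* differing by -2.23 and -1.33, while 4 of the 7 (*Cdh5*, *Cldn5*, *Pdgfrb* and *Col1a1*) were never above background. The 7 genes of microglia and blood summed to 12.59 to 12.83 in wild-type and 11.98 to 12.18 in *Trp53*-/-, and 5 of them (*Aif1*, *Cx3cr1*, *Ptprc*, *Hbb-b1* and *Hba-a1*) were never above background. The part of such cells in the untreated differences was not tested, and in RNA from whole cultures fewer cells of a type and less RNA per cell cannot be told apart.

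**Figure D4:**
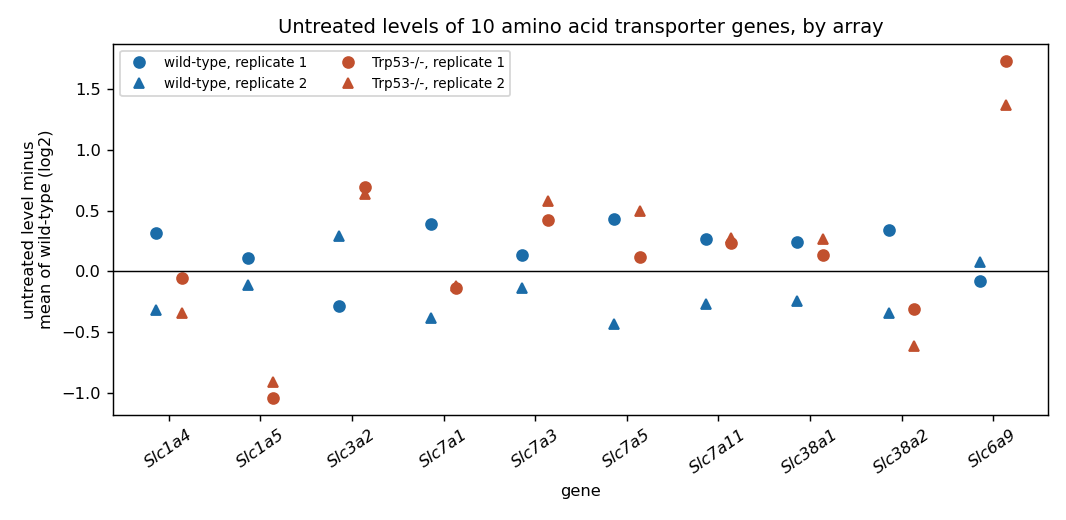
Untreated level of each transporter gene minus its mean over the 2 wild-type arrays (vertical axis, log2), for wild-type in blue and Trp53-/- in red, circles for replicate 1 and triangles for replicate 2. Slc6a9 lies 1.37 and 1.73 above the wild-type mean in Trp53-/- and Slc1a5 lies below it on both Trp53-/- arrays.

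The genes most like *Slc1a5* were those with the smallest root mean square difference from its 4 log2 ratios, among 15408 genes above background in every channel. The nearest was *Rpia*, an enzyme of the pentose phosphate pathway, at -0.99, -0.80, -0.14 and 0.22 in wild-type 1 and 2 and *Trp53*-/- 1 and 2 (root mean square difference 0.0708). It was followed by the histone genes *H2ac22* (0.184) and *H1f4* (0.228), by *Aif1l* (0.229) and by *Prr5* (0.232), which encodes a partner of mTORC2. Of the 8 other transporter genes that were above background in every channel, the closest were *Slc6a9* and *Slc7a1*, at ranks 1296 and 1358, and *Slc7a11* was too dim to be ranked.

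Of 43 other genes of amino acid transporter families 21 passed the filter, and none met the criteria in wild-type, in *Trp53*-/- or for the difference. By *q* alone, 2 were higher and 4 lower in wild-type (of all genes 12.4% and 10.4%), and 1 was higher and 4 lower in *Trp53*-/- (11.5% and 9.69%). Their median response was -0.04 and -0.01, against 0.03 for all genes in both. *Slc6a17*, a transporter of neutral amino acids in synaptic vesicles, was called in the untreated comparison, 2.06 higher (log2) in *Trp53*-/- (limma *q* = 0.00782). In *Trp53*-/- it was also 0.90 lower after PJ34 (*q* = 0.000441), just under 2-fold.

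Among ATF4-linked genes outside the transporters, 1 gene rose in wild-type and 2 fell in *Trp53*-/- by the criteria. Of 30 listed, 29 passed the filter, and of all genes 0.292% rose in wild-type and 0.277% fell in *Trp53*-/- by the criteria. In wild-type *Gdf15*, a secreted stress cytokine that p53 also induces, rose by 1.63 (limma *q* = 0.000279), and none fell by the criteria. In *Trp53*-/- *Nupr1*, a stress-induced chromatin protein, fell by 1.37 (*q* = 5.02e-05) and *Chac1*, which degrades glutathione, fell by 1.01 (*q* = 3e-04). By *q* alone 5 were higher and 7 lower in wild-type, where 12.4% and 10.4% of all genes were, and 1 was higher and 11 were lower in *Trp53*-/-, where 11.5% and 9.69% were. With median centring in place of loess 4 met the criteria as higher in wild-type and 3 in *Trp53*-/-, where 1099 and 3219 of 20237 genes did. None met them as lower in either, and in *Trp53*-/- *Chac1* and *Nupr1* stood at -0.32 and -0.89. *Chac1* also missed the limit of 2-fold without *Trp53*-/- replicate 2 (-0.99). *Asns*, asparagine synthetase and a standard target of ATF4, had log2 ratios of -0.62 (limma *q* = 0.000919) in wild-type and -0.83 (*q* = 0.000403) in *Trp53*-/-, which turned to 0.05 and 0.14 with median centring. *Atf4* itself was at -0.31 (*q* = 0.0405) and -0.51 (*q* = 0.00723), and at 0.43 and 0.56 with median centring.

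The difference between genotypes was called in 3 ATF4-linked genes, all with the higher response in wild-type: *Gdf15* at 1.71 (limma *q* = 0.0104), *Ddit4*, an inhibitor of mTORC1, at 1.63 (*q* = 0.00426) and *Nupr1* at 1.19 (*q* = 0.00221). Of all genes 0.44% were called with the higher response in wild-type. The median difference over the list was 0.21, against -0.01 for all genes, whereas *Slc1a5* was on the opposite side of 0. In untreated cells *Trib3* (1.52, *q* = 0.0135), *Nupr1* (1.46, *q* = 0.0243), *Atf5* (1.27, *q* = 0.0178), *Chac1* (1.09, *q* = 0.0228) and *Ddit3* (1.05, *q* = 0.0296) were higher in *Trp53*-/-. *Sesn2* was lower (-1.003, *q* = 0.0231), where 1.9% of all genes were called higher and 1.98% lower in *Trp53*-/-. None of these untreated differences met the criteria without either *Trp53*-/- array, when 0 of all genes did. Neither channel of *Gdf15* was well above background in *Trp53*-/-, on any array, so that its untreated level was at least 3.92-fold lower there (*q* = 0.00782) and its difference in response rests on dim *Trp53*-/- signals. Of the 3 differences, none met the criteria when the ratios of the scanner were used. With a smaller offset of 16 in the background correction that of *Nupr1* met them, and those of *Gdf15* (*q* = 0.116) and *Ddit4* (*q* = 0.0733) did not. That of *Nupr1* did not with median centring (0.87, *q* = 0.112), and that of *Gdf15* did not without *Trp53*-/- replicate 2 (1.53, *q* = 0.0723).

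**Figure D5:**
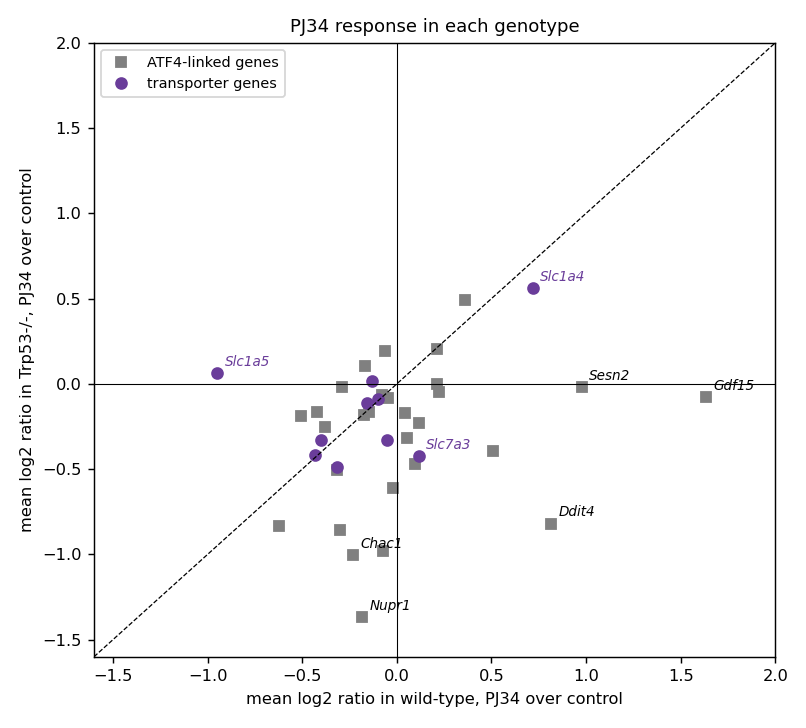
Mean log2 ratio of PJ34 over control in wild-type (horizontal axis) and in Trp53-/- (vertical axis) for the 10 transporter genes in purple and 29 ATF4-linked genes in grey, each point the mean of 2 arrays. The dashed line marks equal responses. Slc1a5 lies above it at -0.95 and 0.06, while Gdf15, Ddit4 and Nupr1 lie below it.

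None of the 20 enzymes of glutamine and glutamate metabolism met the criteria in any comparison. With median centring 6 did as higher in *Trp53*-/-, where 3219 of 20237 genes did. By *q* alone 1 was higher and 5 were lower in wild-type (of all genes 12.4% and 10.4%). In *Trp53*-/- 4 were higher and 3 lower (11.5% and 9.69%). The widest difference between genotypes was that of *Ppat*, the first enzyme of purine synthesis and a consumer of glutamine, at -0.71 and -0.54 in wild-type and 0.12 and 0.15 in *Trp53*-/- (difference -0.76, limma *q* = 0.023). *Ppat* was named after its values were seen, as were *Asns* and *Atf4*. Of 24 genes of amino acid sensing by mTORC1, 23 passed the filter and none met the criteria in either genotype or for the difference. By *q* alone 9 were higher and 1 lower in wild-type (12.4% and 10.4% of all genes), and 2 were higher and 1 lower in *Trp53*-/- (11.5% and 9.69%). *Sesn2*, a leucine sensor and p53 target that is also on the ATF4-linked list, came close, at 0.98 in wild-type (*q* = 0.000419) and -0.02 in *Trp53*-/-.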

How the data were processed

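RNA was measured on Agilent 8 x 60K mouse arrays. The authors deposited the scanner output of Agilent Feature Extraction 10.7.3.1, with the intensity of each spot and its background in both colours and a log10 ratio of Cy5 over Cy3. Probe positions are those of the files (mm9). Gene names came from RefSeq where an accession matched (26300 of 55681 probes, 47.2%), and from the files for the rest. A deposited normalized table was not used, since 4 of its columns matched no sample.

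Intensities were corrected with limma's normexp (limma 3.58.1, R 4.3.3; offset 50) and loess within arrays, control and outlier spots having no weight. Replicate spots were averaged. Kept probes had at least 1 channel above background, by the scanner's flag, on each array of 1 genotype or the other, and a gene was read from its brightest kept probe. limma was fitted over all 4 arrays with a mean per genotype, with *p* and Storey's *q* (lambda from 0.05 to 0.95) over 20237 genes. Untreated levels are control channels after quantile normalization of mean intensities. For a dim channel the limit of a fold was taken against the lowest signal well above background, and is open to dye bias. Dye bias cannot be told apart from PJ34 within a genotype, and its part in the genotype difference was not tested. With 2 arrays a genotype, the number of arrays limits the precision.

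The members and the gene lists were chosen with earlier results of these data known. Named were the 10 genes, the called genes of each list (at most 4 a list and comparison, by size, beside a few named as seen afterwards) and the 5 genes most like *Slc1a5*. Alternatives were other background corrections, normalizations, filters, probe summaries, adjustments and variance models, a replicate block, each genotype fitted alone and leaving out each array. Each array had its own slide and scan, so that neither could be a block.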

Additional observations from a re-analysis of the deposited data

Results flagged for a closer look

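The response of *Slc1a5* to PJ34 differed between the genotypes by -1.01 (log2, wild-type minus *Trp53*-/-), and this difference met the criteria of limma's model. It was chosen in view of these values, so that this is a description. Both wild-type arrays were lower than both *Trp53*-/- arrays, by at least 0.81. The dimmer probe gave -0.30, and without *Trp53*-/- replicate 2 the brighter probe gave -0.82.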

How the results depend on the processing

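Over 676 values of the 10 genes under alternatives, 615 moved by less than the spread between replicates, 61 moved by more, and 0 called values changed sign. Uncalled values did change sign with median centring. Adjustments, variance models and replicate blocks leave the estimate as it is, so that part of these values, and of the 1020 below, could not move. In wild-type, where none of the 10 met the criteria, *Slc1a5* made the count 1 with no background correction, with an offset of 16 and with the log ratios of the scanner, and *Slc1a4* made it 1 with median centring. In *Trp53*-/- median centring also made it 1. For the genotype difference the count of 1 fell to 0 with an offset of 16, with the scanner's own ratios, under which no gene at all was called, and with the mean of a gene's probes. It ranged from 0 to 1 when an array was left out, with 0 without wild-type replicate 1 and without *Trp53*-/- replicate 2. For the untreated difference the count of 1 became 2, by *Slc1a5*, with no background correction and with an offset of 16. It ranged from 0 to 2 when an array was left out, with 2 without wild-type replicate 2 and 0 without either *Trp53*-/- array, where no gene at all was called. Of 1020 values of all genes named, the 10 included, 919 moved by less than the spread. At unadjusted *p* without a limit on size the counts were 5, 6, 2 and 4. In leaving out an array, the lone array of its genotype was assumed to vary like the others.

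The labels give the replicates only a number. The correlation across genes of replicate 1 minus 2 between genotypes was -0.16 for ratios and 0.08 for control levels. With the number as a replicate block the counts stayed 0, 0, 1 and 1, and with the crossed pairing, added after seeing the data, they were 0, 0 and 1. Median centring called 1099 genes higher and 2 lower in wild-type and 3219 and 4 in *Trp53*-/-, against 59 and 39, and 19 and 56. *Slc7a11*, with 3 of 8 channels above background, is limited by its signal.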
